A study of Homo sapiens with 4 samples.

Results

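The silencing of GPR64 in A673 cells was read from 1 RNA library of cells that received GPR64 siRNA (siGPR64) and 1 library of its own scrambled siRNA control (control_GPR64). These are 2 of the 4 libraries of the series and were taken by their titles. The comparison is described across the 12830 of 23228 listed genes that had a mean of at least 1 CPM (the usual depth-normalised gene count, here over the TMM-scaled library size) over the pair. A673 is an established Ewing sarcoma line that carries the EWS-FLI1 fusion, and the labels name this line for all 4 libraries, although they give the tissue as muscle. The other pair of libraries is of cells given SMPD1 siRNA (siSMPD1) and of its own scrambled siRNA control (control_SMPD1), and the 4 libraries were made from cells in the same insulin-containing medium, transfected with RNAiMAX and harvested after 48 h per the treatment protocol. The titles of the GPR64 pair give no time, and the sequences of the siRNAs are not used here.

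GPR64, now named ADGRG2, is an adhesion G protein-coupled receptor, a family in which the long extracellular part is cut from the membrane part and stays attached to it. It is best known from the efferent ducts and epididymis, where it couples to G proteins of the cAMP and calcium pathways and supports fluid transport. It is also expressed in Ewing sarcoma, where it has been tied to placental growth factor (PGF) and the collagenase MMP1.

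Each side had 1 library, so no value has a replicate check and no p-value is given for a gene. Gene counts summed to 2534861 in siGPR64 and 2882854 in control_GPR64, beside 18849264 and 19614913 in siSMPD1 and control_SMPD1. At that depth 3 counts, taken as the limit that a count of 0 allows, equal 1.18 CPM in siGPR64 and 1.03 CPM in control_GPR64. A gene is called higher or lower here when the ratio was at least 2-fold and its exact 95% Clopper-Pearson interval excluded equality. That interval, given after a fold, covers counting error only. At the edge of the CPM rule, 11 genes with 0 and 6 counts (siGPR64, then control_GPR64; mean 1.03 CPM) were just inside, and 16 genes with 5 and 0 counts (0.979 CPM) just outside. In this comparison 842 genes (6.56%) were higher and 664 (5.18%) were lower in siGPR64, 11.7% in either direction. The median log2 ratio of all measured genes was 0.01, with quartiles of -0.37 and 0.41.

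Of 10 Ewing sarcoma markers, 9 were measured and their summed level was 3224 CPM in control_GPR64 and 3937 CPM in siGPR64. Of these 9, 1 was called higher (PAX7, described below) and 0 lower, and 6 had a log2 ratio above 0, with a lowest of -0.65. Their median log2 ratio was 0.24, and -0.08 against control_SMPD1. Among them NKX2-2, called in neither direction, stood at 88 CPM in control_GPR64 and 135 CPM in siGPR64. The remaining marker, CD99, was listed at 0 in all 4 libraries. Reads not uniquely aligned are left out of the counts, so this 0 does not show that CD99 RNA was absent, and its cause was not tested. The skeletal muscle factors MYOD1, MYOG and MYF5 and the muscle proteins DES, ACTA1 and CKM were at 0 counts in both libraries. The other 2 of the 8 muscle markers were measured and called in neither direction, TNNT1, a slow troponin, at 59.3 CPM in control_GPR64 and 43.9 CPM in siGPR64, with 11.3 CPM in control_SMPD1, and MYH3, an embryonic myosin, at 1.71 CPM in control_GPR64 and 1.96 CPM in siGPR64. The summed level of the muscle list was 61.0 CPM in control_GPR64, 45.8 CPM in siGPR64, 13.5 CPM in control_SMPD1 and 18.2 CPM in siSMPD1. Of the 6 immune markers only CD68 was measured, at 2.74 CPM in control_GPR64 and 7.05 CPM in siGPR64, and PTPRC and CD3E were at 0. Of the 6 epithelial markers, KRT8 was 3.92-fold higher (2.34 to 7.18) and KRT18 was the other measured one, with a summed level of 85.3 CPM in control_GPR64 and 169 CPM in siGPR64, while CDH1 was at 0. Of 10 fibroblast and endothelial markers 5 were measured, COL1A1 higher and DCN lower, with sums of 121 and 148 CPM, and PECAM1 and VWF were at 0. With control_SMPD1 as the control, KRT8 stood on the other side of equality.

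The promoters below belong to called genes of 4 groups described below: ATF4 targets, arrestin-domain and MondoA network genes, heat shock proteins and histones. They show matches to the motif textbooks link to each group, in sequence upstream of the start of the gene as RefSeq gives it (GRCh38.p14), 5′ to 3′ on the strand of the gene. Both strands were searched over the 250 bases before the start, and capitals mark each match on either strand.
ASNS and ATF3 are given with the amino acid response element TGATGNAA, to which ATF4 dimers bind, as is CHAC1. They lie at chr7:97872413-97872532, minus strand, chr1:212565160-212565279, plus strand, and chr15:40953221-40953340, plus strand.
ASNS: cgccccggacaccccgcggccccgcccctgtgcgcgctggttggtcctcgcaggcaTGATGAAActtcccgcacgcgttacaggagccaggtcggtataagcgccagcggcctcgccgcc
ATF3: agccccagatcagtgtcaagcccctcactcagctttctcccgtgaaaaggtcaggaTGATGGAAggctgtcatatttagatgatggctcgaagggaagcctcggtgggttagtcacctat
CHAC1: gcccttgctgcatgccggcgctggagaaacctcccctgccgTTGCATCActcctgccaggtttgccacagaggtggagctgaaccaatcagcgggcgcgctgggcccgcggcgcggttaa
ARRDC4 is given with the E-box CACGTG, the core of the element that MondoA and MLX bind, at chr15:97960453-97960572, plus strand.
ARRDC4: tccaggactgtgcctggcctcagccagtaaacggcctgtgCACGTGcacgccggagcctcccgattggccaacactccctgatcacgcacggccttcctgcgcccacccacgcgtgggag
HSPA8 is given with the heat shock element, searched as 3 units of GAA and its reverse complement TTC in turn with 2 bases between units, at chr11:123062163-123062382, minus strand, in which 2 separate matches stand.
HSPA8: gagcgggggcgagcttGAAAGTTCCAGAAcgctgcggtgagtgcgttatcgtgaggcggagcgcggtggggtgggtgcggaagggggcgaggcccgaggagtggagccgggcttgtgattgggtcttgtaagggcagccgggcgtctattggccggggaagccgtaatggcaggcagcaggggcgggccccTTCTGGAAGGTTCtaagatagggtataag
HIST1H2BK and HIST1H2BD, a pair of replication-dependent histone genes, are given with the CCAAT box, at chr6:27146889-27147108, minus strand, and chr6:26157903-26158102, plus strand, with 6 and 4 matches.
HIST1H2BK: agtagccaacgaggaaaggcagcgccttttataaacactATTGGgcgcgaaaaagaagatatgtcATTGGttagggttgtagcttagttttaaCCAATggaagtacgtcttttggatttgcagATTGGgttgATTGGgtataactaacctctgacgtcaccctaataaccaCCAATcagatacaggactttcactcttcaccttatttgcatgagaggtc
HIST1H2BD: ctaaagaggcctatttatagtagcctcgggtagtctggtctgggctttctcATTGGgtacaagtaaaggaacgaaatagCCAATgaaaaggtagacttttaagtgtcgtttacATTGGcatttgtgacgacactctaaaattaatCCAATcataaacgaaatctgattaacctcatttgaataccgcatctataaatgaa

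GPR64 itself was lower in siGPR64. It had 317 counts in control_GPR64 and 128 in siGPR64, which are 109 and 50.1 CPM, 2.16-fold lower (1.76 to 2.68). In the other pair it stood at 388 CPM in control_SMPD1 and 539 CPM in siSMPD1, so siGPR64 held the lowest level of the 4 libraries. The level in control_GPR64 lay below both libraries of the SMPD1 pair, with a log2 ratio of -1.84 to control_SMPD1. Against control_SMPD1 the log2 ratio of siGPR64 was -2.95.

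The number of genes called depended on their level. Of the 1984 genes between 1 and 5 CPM, 9.17% were higher and 6.85% lower, and between 5 and 10 CPM these shares were 16% and 11.9% of 1090 genes. Of 2397 genes between 100 and 500 CPM, 2.42% were higher and 2.04% lower. Among the 232 genes at 500 CPM or more, HSPA8 was the single higher gene, and 4 were lower: ATF5, ASNS, PSAT1 and CLIC4, each an ATF4 list member and named by the size of its difference in CPM. The counting interval had a median width of 4.08 on the log2 scale in the lowest of these classes and 0.19 in the highest. Within 1.5-fold of equality lay 65.8% of all measured genes.

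**Figure D1:**
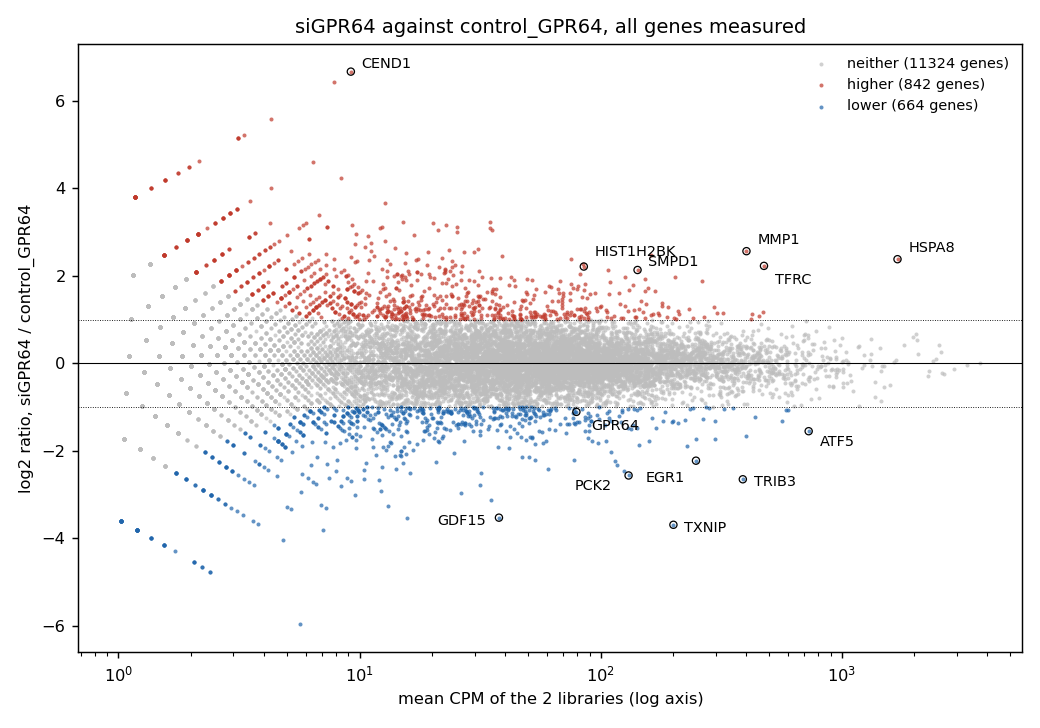
Log2 ratio of siGPR64 to control_GPR64 against mean CPM (log axis) for the 12830 measured genes, with 842 higher and 664 lower genes coloured and a few named. The named ATF4 targets lie below the line at 0, and HSPA8 stands alone among higher genes at 500 CPM or more.

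The control library of the pair stood at the end of the range of the 4 libraries for most called genes. Of the 842 higher genes, control_GPR64 was the lowest of 4 for 752 (89.3%) and siGPR64 the highest for 481 (57.1%). Of the 664 lower genes, control_GPR64 was the highest for 567 (85.4%) and siGPR64 the lowest for 467 (70.3%). Among genes called in neither direction control_GPR64 was the highest for 29.6% and the lowest for 29.2%. The calls themselves fix the order within the GPR64 pair, so these shares describe only where the other pair lay. Against control_SMPD1, siGPR64 was at least 2-fold different in the same direction for 196 of the genes called higher and 243 of those called lower, and in the opposite direction for 29 and 42. Both ratios hold the siGPR64 library. The labels do not say that the pairs were grown or run side by side, and the GPR64 pair is shallower, so an effect of the pair and one of its control library cannot be told apart. For many groups and genes the value against control_SMPD1 is given below as well.

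The ratios also moved with position. On chromosome 11 the median log2 ratio of 722 measured genes was 0.32, and 14.1% were higher against 1.66% lower. Cut into 18 windows of neighbouring genes, each about 40 genes long, the chromosome had a median above 0 in all 18, from 0.14 to 0.56. Outside chromosomes 5, 8 and 11, the median was above 0 in 132 of 266 windows and lay between -0.43 and 0.32. The windows of chromosome 11 had medians from -0.84 to -0.17 for control_GPR64 against control_SMPD1 and from -0.38 to 0.02 for siGPR64 against control_SMPD1. Between siSMPD1 and control_SMPD1 they lay from -0.16 to 0.22.

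At the distal end of chromosome 5, from FAM114A2 to TRIM52, the last 3 windows lay at -0.40, -0.22 and -0.46. The same windows stood at 0.81, 0.79 and 0.90 in control_GPR64 against control_SMPD1 and at 0.34, 0.53 and 0.43 in siGPR64 against control_SMPD1. On chromosome 8 the 2 windows that begin at LRRCC1 lay at 0.29 and 0.33, with -0.69 and -0.55 in control_GPR64 against control_SMPD1. DNA was not measured in these libraries, the labels do not state whether the cultures were from 1 stock of the line, and what sets these stretches apart was not tested. Without the genes of these 3 chromosomes 664 genes were higher and 580 lower, a setting chosen after the medians by chromosome had been seen.

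**Figure D2:**
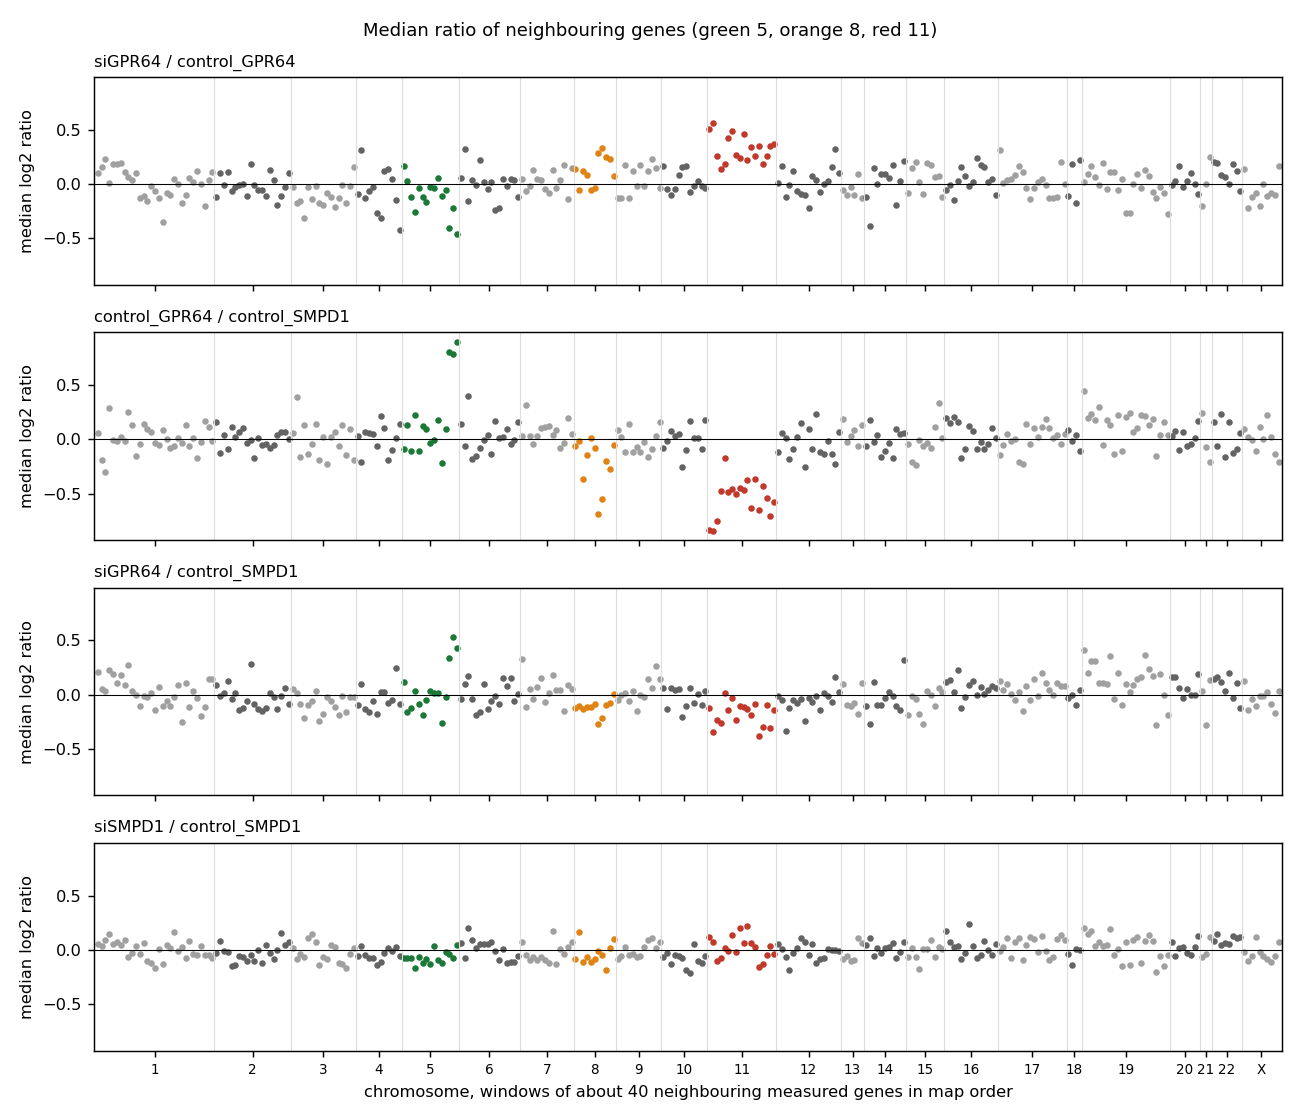
Median log2 ratio in windows of about 40 neighbouring measured genes, 1 point per window, along each chromosome in RefSeq gene order, in panels for siGPR64 against control_GPR64, control_GPR64 against control_SMPD1, siGPR64 against control_SMPD1 and siSMPD1 against control_SMPD1 (top to bottom). All 18 windows of chromosome 11 (red) lie above 0 in the top panel and below 0 in the next, and the last 3 of chromosome 5 (green) lie below 0 in the top panel and above 0 in the next.

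The higher genes with the interval bound furthest from equality were led by 2 that had no count in the control. CEND1, which drives exit of neuronal precursors from the cell cycle, had 0 counts in control_GPR64 and 47 in siGPR64 (18.4 CPM), at least 17.9-fold higher, with 1.15 CPM in control_SMPD1 and 5.25 CPM in siSMPD1. OSGIN1, an oxidative stress-induced growth inhibitor, also had 0 counts against 40, at least 15.2-fold higher, and stood at 2.97 CPM in control_SMPD1 and 2.28 CPM in siSMPD1. In both cases siGPR64 was above all 3 other libraries. MRGPRF, an orphan G protein-coupled receptor of the MAS-related family, had 0 counts against 22 (8.62 CPM), at least 8.39-fold higher, but was at 5.93 CPM in control_SMPD1 and 11.6 CPM in siSMPD1, so control_GPR64 was the library that stood apart. LECT1, the cartilage glycoprotein chondromodulin, was at 0.343 CPM in control_GPR64 and 12.5 CPM in siGPR64, 24.2-fold higher (6.11 to 1490.0), and at 10.7 CPM in control_SMPD1 and 13.5 CPM in siSMPD1. SLC4A8, a sodium-dependent bicarbonate exchanger, was 18.7-fold higher (6.09 to 200.1), with 0.685 CPM in control_GPR64 and 16.1 CPM in siGPR64. SYNM, an intermediate filament protein, was 12.7-fold higher (5.66 to 44.5), with 16.3 CPM in control_SMPD1 and a log2 ratio of 0.55 to it, and MYOF, a ferlin of membrane repair, 8.25-fold higher (5.38 to 13.8). For B7H6, the ligand of the natural killer cell receptor NKp30, the pair read 7.19 CPM in control_GPR64 and 62.3 CPM in siGPR64, 8.47-fold higher (5.47 to 14.4), against 59.2 CPM in control_SMPD1. Of these, CEND1, MRGPRF and B7H6 lie on chromosome 11. The side was the opposite against control_SMPD1 for MYOF.

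The lower genes with the furthest bound were led by TXNIP, the thioredoxin-interacting protein that restrains glucose uptake. TXNIP read 372 CPM in control_GPR64 and 28.6 CPM in siGPR64, 12.9-fold lower (10.3 to 16.7), and 64.3 CPM in control_SMPD1 and 42 CPM in siSMPD1. SP6, a zinc finger factor of epithelial and tooth development, read 11.3 CPM in control_GPR64 and 0 CPM in siGPR64, at least 9.62-fold lower, and 0.104 CPM in control_SMPD1. For both genes control_GPR64 held the highest of the 4 levels. For TXNIP siGPR64 held the lowest, whereas the 0 counts of SP6 in siGPR64 allow up to 1.18 CPM, so that its order to the SMPD1 pair cannot be told. TM6SF1, a membrane protein, was 11.6-fold lower (5.46 to 34.7), and the largely uncharacterised C6orf223 7.78-fold lower (4.68 to 14.7). The other lower genes of this rank, GDF15, TRIB3, PCK2, DDIT4, INHBE and ARRDC4, belong to the stress and nutrient groups described next.

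**Figure D3:**
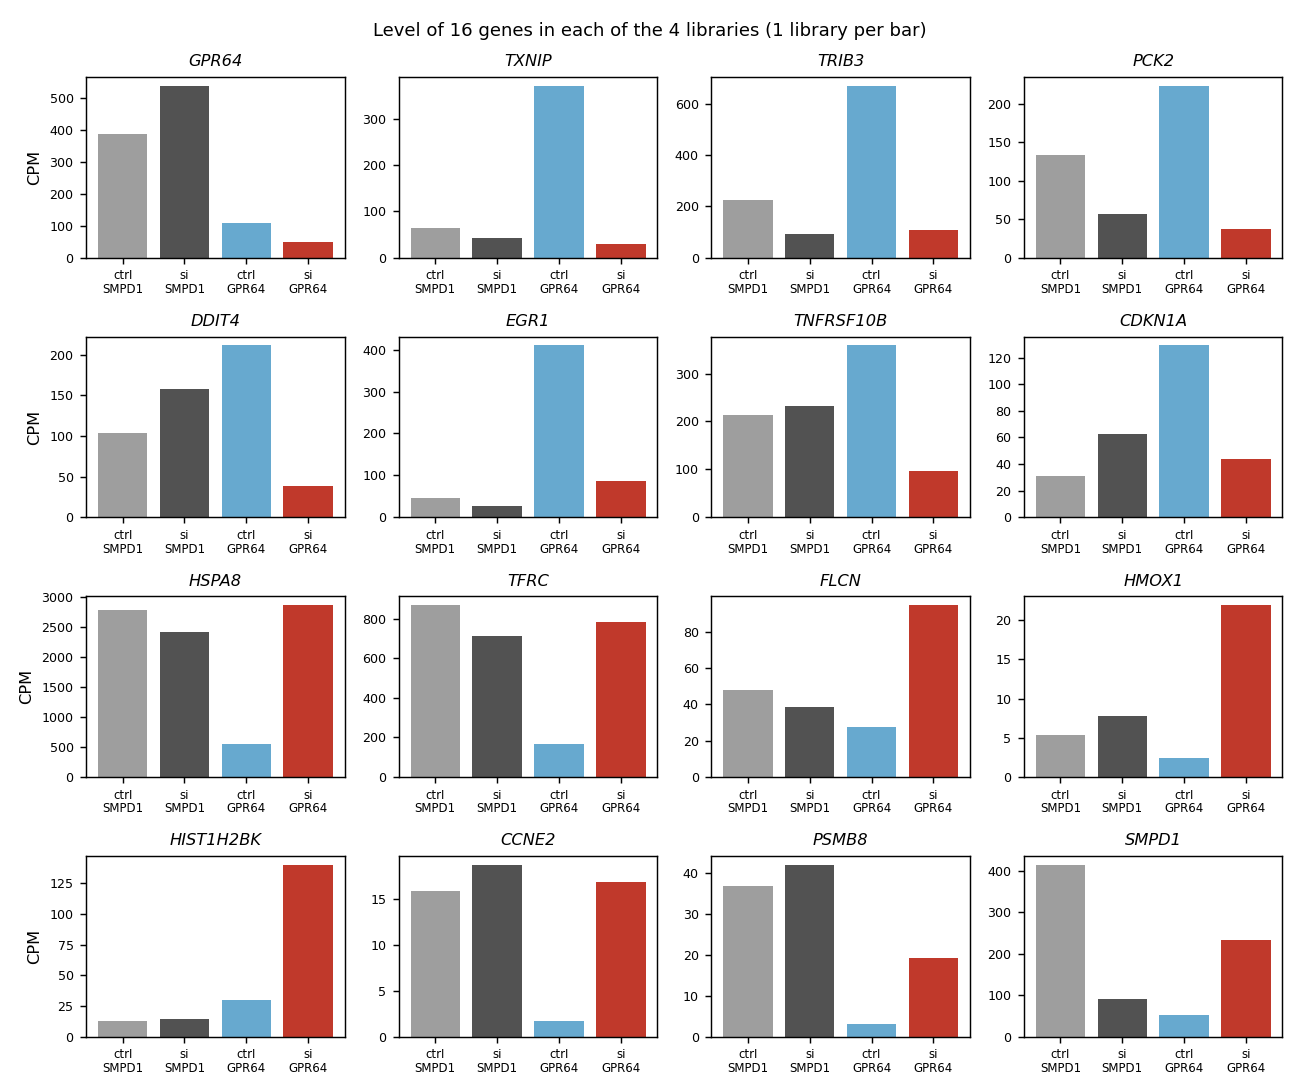
CPM of 16 genes in each of the 4 libraries, 1 bar per library on a linear axis from 0, with no error bars since each group is 1 library. TXNIP, TRIB3 and EGR1 peak in control_GPR64 (372, 671 and 410.0 CPM), HSPA8 and TFRC are lowest there (549 and 168 CPM), and FLCN, HMOX1 and HIST1H2BK are highest in siGPR64.

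ATF4 targets, the genes switched on when cells sense amino acid shortage or other stress that slows translation, were lower as a group. Of 44 measured members (45 listed) 21 were lower and 0 higher, against 5.18% and 6.56% of all genes, and the median log2 ratio was -0.95. The direction was the same with control_SMPD1 in place of the paired control, but the size was smaller: 8 were lower, 0 higher and the median was -0.45. Over all genes 6.18% were higher and 5.25% lower against control_SMPD1, 11.4% in either direction. The list had a median of 0.67 in control_GPR64 against control_SMPD1. The members and lists were chosen with earlier results of these data known, so their counts are descriptions. Each list count below stands beside the same shares of all genes, 6.56% higher and 5.18% lower against control_GPR64. Those shares were largest for genes between 5 and 10 CPM, 16% and 11.9%, and the lists were not matched for level.

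Feedback and signalling genes of this list were among those called. TRIB3, a pseudokinase that restrains ATF4 and AKT, read 671 CPM in control_GPR64 and 107 CPM in siGPR64, 6.29-fold lower (5.55 to 7.18), and 225 CPM in control_SMPD1 and 91.5 CPM in siSMPD1. GDF15, a stress-induced hormone that lowers food intake, read 69.9 CPM in control_GPR64 and 5.88 CPM in siGPR64, 11.6-fold lower (7.04 to 21.6), but was at 3.02 CPM in control_SMPD1 and 1.06 CPM in siSMPD1. For TRIB3 both knockdown libraries lay under both controls, whereas for GDF15 control_GPR64 was the library far from the rest. INHBE, an inhibin beta subunit, was 9.54-fold lower (4.46 to 28.7) and also under its level in control_SMPD1, 5.36 CPM. DDIT3, the CHOP factor of stress-induced cell death, was 3.53-fold lower (2.87 to 4.41), with 153 CPM in control_GPR64 and 43.1 CPM in siGPR64 and 61.7 CPM in control_SMPD1. PPP1R15A, the phosphatase subunit that lets translation resume, was 3.67-fold lower (3.09 to 4.4), and CHAC1, a glutathione-degrading enzyme, 3.46-fold lower (2.65 to 4.6). The factors ATF5 and ATF3 were 2.94-fold lower (2.73 to 3.16) and 4.43-fold lower (3.26 to 6.24).

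Several enzymes of amino acid synthesis in the list were called lower. ASNS, asparagine synthetase, read 810.1 CPM in control_GPR64 and 323 CPM in siGPR64, 2.51-fold lower (2.32 to 2.72), and 407 CPM in control_SMPD1 and 185 CPM in siSMPD1. PSAT1 and PSPH, steps of serine synthesis, were 2.09-fold lower (1.94 to 2.25) and 2.53-fold lower (2.13 to 3.03), while PHGDH, the first step, was called in neither direction at 1.42-fold lower. CTH, which makes cysteine, was 5.01-fold lower (4.05 to 6.29), PYCR1, which makes proline, 2.81-fold lower (2.39 to 3.33), and PCK2, which makes phosphoenolpyruvate in mitochondria, 5.92-fold lower (4.79 to 7.45). ALDH18A1, the first step of proline synthesis, was called in neither direction at 1.2-fold higher. Set against control_SMPD1, PCK2 had a log2 ratio of -1.82 in siGPR64 and ASNS of -0.33. Over the list of serine, glycine and folate enzymes 4 of 27 measured were lower and 0 higher, with ALDH1L1, a cytosolic folate enzyme, at 34.6 CPM in control_GPR64 and 7.05 CPM in siGPR64. The median of that list was -0.11 (against control_SMPD1 1 higher, 2 lower, median -0.08).

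The amino acid response element occurred in 4 of the 34 promoters of ATF4 list members that had a sequence. They were ASNS, CHAC1 and ATF3, whose promoters are printed above, and MTHFD1L, which was called in neither direction (1.25-fold lower). The element stood in 1.40% of 10023 promoters of measured genes and in 3.18% of all 27195 promoters of the table. It was present in 3.17% of 504 promoters of lower genes and in 0.82% of 613 promoters of higher genes. The element of ASNS begins 68 bases before the start, that of CHAC1 209 and that of ATF3 191.

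Cytosolic aminoacyl-tRNA synthetases, which charge tRNAs and many of which ATF4 also drives, were at a median of -0.46 with 7 of 23 above 0 (51.1% of all genes), yet none was called. Against control_SMPD1 the median was -0.23. Amino acid transporters were split, with 6 of 26 higher and 4 lower and a median of 0.10 (against control_SMPD1 5 higher, 3 lower, median -0.13). The arginine and lysine carrier SLC7A1 read 459 CPM in control_GPR64 and 137 CPM in siGPR64, 3.34-fold lower (2.97 to 3.78), and its relative SLC7A3 5.72-fold lower (3.2 to 11.9), whereas the taurine carrier SLC6A6 was 3.03-fold higher (2.49 to 3.73) and the neutral amino acid carrier SLC6A15 3.74-fold higher (2.53 to 5.82). The leucine carrier subunits SLC7A5 and SLC3A2 were called in neither direction, at 1.21-fold and 1.36-fold lower. Set against control_SMPD1, SLC7A3 had the opposite sign.

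A list of arrestin-domain genes and factors of the network of MondoA, a glucose sensor, and MAX had a median of -0.32, with 5 of 15 measured members lower and 0 higher (against control_SMPD1 0 higher, 2 lower, median -0.20). The arrestin-domain members are TXNIP and ARRDC1 to ARRDC4, of which ARRDC2 was called in neither direction (1.07-fold higher), and of the network factors only MXD1 was called. Beside TXNIP, ARRDC4, a regulator of glucose uptake and receptor trafficking, read 63 CPM in control_GPR64 and 7.05 CPM in siGPR64, 8.74-fold lower (5.5 to 15.4), and 5.83 CPM in control_SMPD1 and 2.81 CPM in siSMPD1. ARRDC4 in siGPR64 was thus close to the SMPD1 pair, and control_GPR64 stood above all. ARRDC3, ARRDC1 and the MYC antagonist MXD1 were 2.29-fold lower, 2.01-fold lower and 2.79-fold lower. An E-box CACGTG occurred in 4 of the 15 promoters of the list, those of ARRDC4, MLX, MNT and MXD4, against 9.15% of measured and 6.5% of all promoters. MLX, MNT and MXD4 were called in neither direction, at 1.53-fold lower, 1.27-fold higher and 1.71-fold lower. The E-box stood in 5.95% of the promoters of lower genes and 9.79% of those of higher genes. The match in ARRDC4 begins 210 bases before the start.

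Regulators of mTORC1, the kinase complex that couples growth to amino acids, held 3 higher and 2 lower members of 30, beside 6.56% and 5.18% of all genes, with a median of 0.18 (against control_SMPD1 0 higher, 1 lower, median 0.01). FLCN, a GTPase activator at the lysosome, read 27.7 CPM in control_GPR64 and 94.8 CPM in siGPR64, 3.4-fold higher (2.65 to 4.45), and 47.9 CPM in control_SMPD1 and 38.4 CPM in siSMPD1. The Rag GTPases RRAGC and RRAGD were 3.09-fold higher (2.15 to 4.6) and 2.9-fold higher (1.93 to 4.56). DDIT4 and SESN2, inhibitors of the complex that also sit in the ATF4 list, were 5.55-fold lower (4.49 to 6.97) and 4.09-fold lower (3.34 to 5.08). FLCN was highest in siGPR64 of the 4 libraries.

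Among 47 lysosomal genes 7 were higher and 2 lower, with a median of 0.48 (against control_SMPD1 0 higher, 0 lower, median -0.01). CTSD, an aspartic protease, read 99 CPM in control_GPR64 and 259 CPM in siGPR64 and 260.0 CPM in control_SMPD1 and 310.3 CPM in siSMPD1, and TPP1, a peptidase, 34.6 CPM in control_GPR64 and 105 CPM in siGPR64 and 139 CPM in control_SMPD1 and 139 CPM in siSMPD1, so that only control_GPR64 stood apart in both. SMPD1, acid sphingomyelinase and target of the other knockdown, was 4.38-fold higher (3.68 to 5.28), with 52.8 CPM in control_GPR64 and 232 CPM in siGPR64. These 3 genes lie on chromosome 11, and the other 4 higher members do not. IDS, a sulfatase, was 3.28-fold higher (2.81 to 3.86) and LAMP2, a lysosomal membrane protein, 2.45-fold higher (2.03 to 2.96). For SMPD1 the sign turned with control_SMPD1 as the control.

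Cytosolic heat shock proteins and their cochaperones, which fold proteins and are driven by HSF1, were higher in 9 of 35 measured cases and lower in 1, with a median of 0.48. Against control_SMPD1 0 were higher, 0 lower and the median was 0.24. HSPA8, the constitutive HSP70, read 549 CPM in control_GPR64 and 2859 CPM in siGPR64, 5.2-fold higher (4.93 to 5.5), and 2778 CPM in control_SMPD1 and 2414 CPM in siSMPD1. The value of control_GPR64 was the one that stood apart, and HSPA8 lies on chromosome 11. The inducible HSPA1A read 6.51 CPM in control_GPR64 and 63.1 CPM in siGPR64, 9.45-fold higher (6.01 to 16.5), and 44.2 CPM in control_SMPD1 and 50.8 CPM in siSMPD1, and its near-identical copy HSPA1B was 5.45-fold higher (3.82 to 8.19). HSPA1A and HSPA1B share reads that align to both, so their counts are uncertain. HSPH1, a nucleotide exchange factor, read 289 CPM in control_GPR64 and 654 CPM in siGPR64, 2.26-fold higher (2.08 to 2.46), with 514 CPM in control_SMPD1, and DNAJB1, the HSP40 that delivers clients, 3.17-fold higher (2.68 to 3.78). HSPA4L was 5.15-fold higher (2.83 to 10.9) and the cochaperone BAG2 2.33-fold higher (1.95 to 2.8), while the cochaperone DNAJB5 was 2.01-fold lower (1.54 to 2.65). With chromosomes 5, 8 and 11 left out, 8 members were higher and 1 lower. With control_SMPD1 as the control, DNAJB5 stood on the other side of equality.

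The 3-unit heat shock element stood in 4 of the 31 promoters of this list, against 0.30% of measured and 0.44% of all promoters. HSPA8 held 2 matches, which begin 230 and 55 bases before its start. DNAJB6, CHORDC1 and SERPINH1, the other members with the element, were called in neither direction at 1.22-fold lower, 1.36-fold higher and 1.19-fold higher. SERPINH1 makes a chaperone of the endoplasmic reticulum, so the list is not purely cytosolic. The chaperonin CCT and prefoldin, which fold actin and tubulin, had 0 of 16 members called and a median of 0.03. Of 32 endoplasmic reticulum chaperones and unfolded protein response genes 2 were higher and 2 lower, beside 6.56% and 5.18% of all genes. Against control_SMPD1 0 were higher, 0 lower and the median was -0.41. SDF2L1, a chaperone of that compartment, was 2.62-fold higher (1.87 to 3.77) and XBP1, its transcription factor, 2.03-fold lower (1.74 to 2.36).

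NRF2 targets, the genes of antioxidant defence, were higher in 5 of 35 measured cases and lower in 0, with a median of 0.54 (against control_SMPD1 2 higher, 0 lower, median 0.32). HMOX1, which degrades heme, read 2.4 CPM in control_GPR64 and 21.9 CPM in siGPR64, 8.57-fold higher (4.16 to 23.8), and 5.41 CPM in control_SMPD1 and 7.79 CPM in siSMPD1. TXNRD1, thioredoxin reductase, read 292 CPM in control_GPR64 and 613 CPM in siGPR64, 2.1-fold higher (1.93 to 2.29), with 421 CPM in control_SMPD1. SRXN1, which repairs peroxiredoxins, was 2.56-fold higher (1.88 to 3.55). The siGPR64 level was the highest of the 4 for HMOX1, OSGIN1, TXNRD1 and SRXN1. NFE2L2, the gene of NRF2 itself, was at 182 CPM in control_GPR64 and 136 CPM in siGPR64, called in neither direction. An antioxidant response element, searched as TGAC and GCA with 3 bases between them, was present in the promoter of GCLM alone among the 27 of the list, against 2.16% of measured and 2.64% of all promoters.

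Metal handling genes had 4 of 16 measured members higher and 0 lower and a median of 0.70. Against control_SMPD1 0 were higher, 0 lower and the median was 0.40, and between the controls it was -0.42. TFRC, the transferrin receptor that takes up iron, read 168 CPM in control_GPR64 and 785 CPM in siGPR64, 4.68-fold higher (4.24 to 5.18), and 868 CPM in control_SMPD1 and 713 CPM in siSMPD1, so that control_GPR64 was far below the rest. MT2A, a metal-binding metallothionein, was 2.43-fold higher (1.74 to 3.48), MT1F 2.62-fold higher (1.29 to 6.06) and the iron transporter SLC11A2 2.12-fold higher (1.66 to 2.74). Metallothionein genes are near-identical copies, and reads that align to several were left out of their counts.

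Replication-dependent histone genes, most of which make transcripts without a poly(A) tail and which are active in S phase, had 17 of 72 listed members measured, 9 higher and 0 lower, with a median of 1.72. Against control_SMPD1 14 were higher, 0 lower and the median was 3.14. Members pass the CPM filter partly through the library where they are high, and over the 44 members with a count in either library the median was 0.88. HIST1H2BK read 30.1 CPM in control_GPR64 and 140.2 CPM in siGPR64, 4.63-fold higher (3.68 to 5.94), and 12.5 CPM in control_SMPD1 and 14.5 CPM in siSMPD1. HIST1H2BD read 15.8 CPM in control_GPR64 and 61.1 CPM in siGPR64, 3.85-fold higher (2.78 to 5.51), and 4.68 CPM in control_SMPD1 and 8.21 CPM in siSMPD1. For both the order was siGPR64 above control_GPR64 above the SMPD1 pair. Of the 72 listed members 28 were at 0 in both libraries of the GPR64 pair. The summed level of the list was 114 CPM in control_GPR64, 371 CPM in siGPR64, 45.2 CPM in control_SMPD1 and 56.5 CPM in siSMPD1. In bulk RNA, more cells in S phase and more histone RNA per cell cannot be told apart, and neither these nor other causes were tested. HIST1H2AC was 3.72-fold higher (2.55 to 5.65), the linker histone HIST1H1C 3.89-fold higher (2.49 to 6.52) and HIST2H2BE 3.3-fold higher (2.12 to 5.44). Several of these genes have near-identical copies, so that part of their reads may align to several places and is not counted. A CCAAT box stood in 13 of the 14 promoters of the list, against 35.1% of measured and 33.0% of all promoters, and the matches of HIST1H2BK and HIST1H2BD are printed above. Histone variants and histone chaperones had 1 of 24 measured members lower, H2AFJ, which was 2.53-fold lower (1.63 to 4.12).

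**Figure D4:**
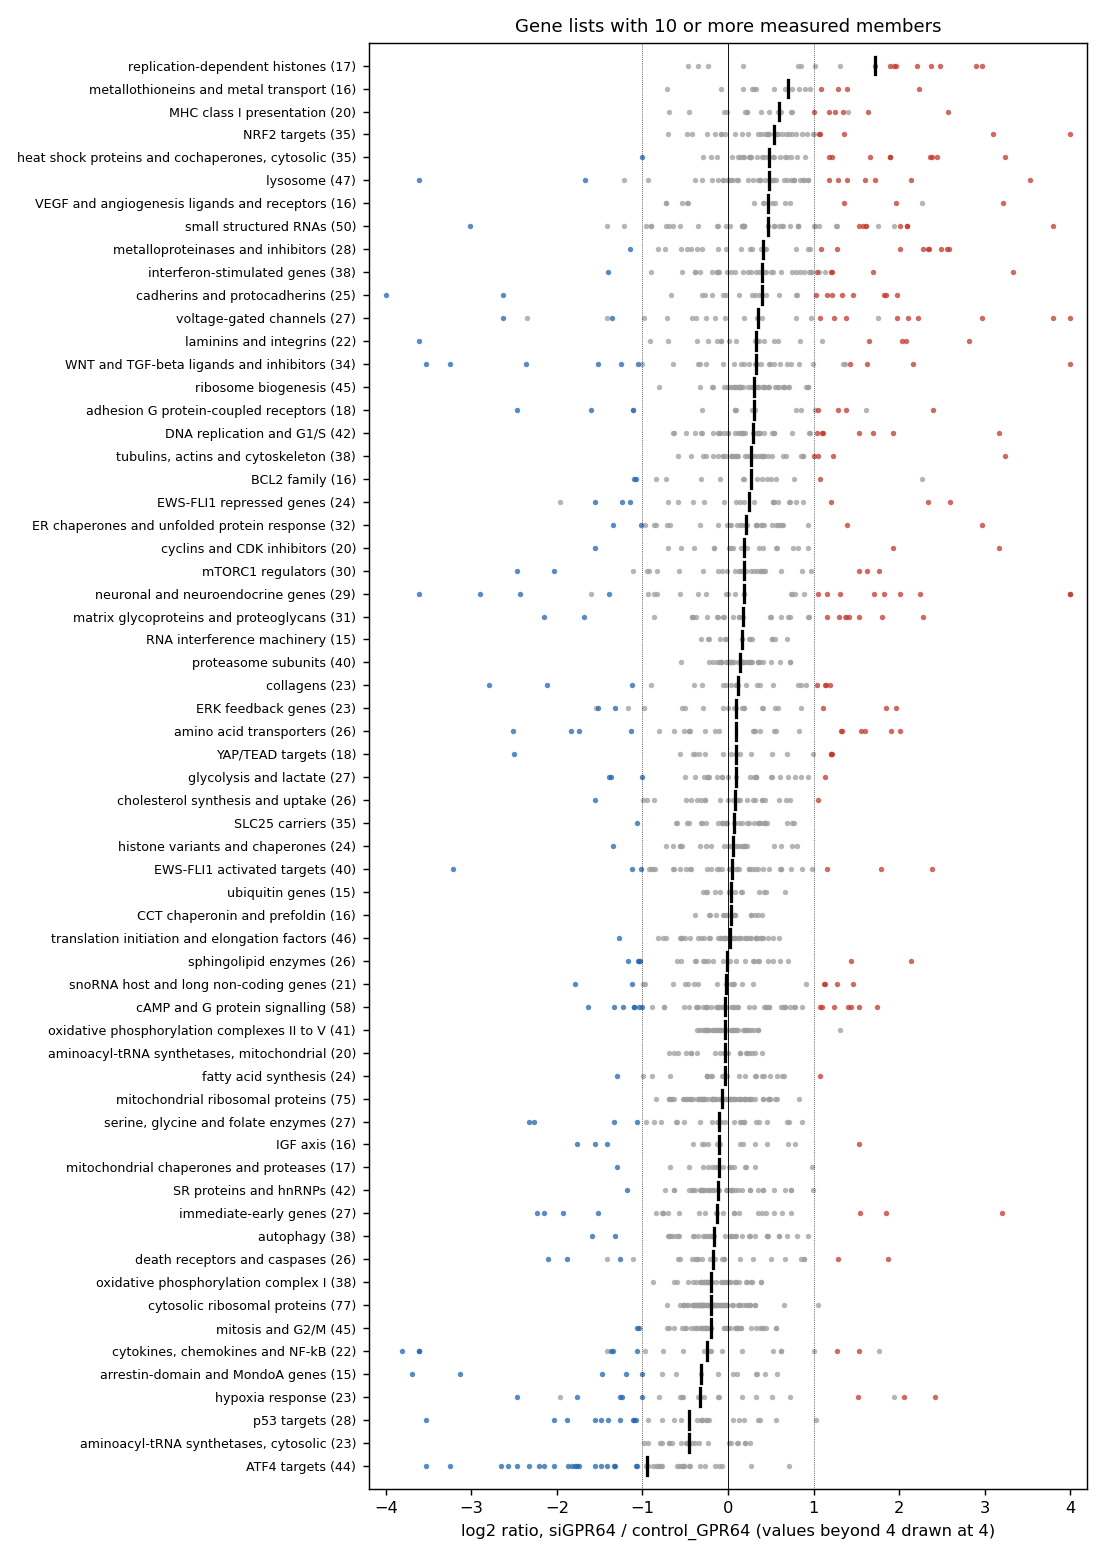
Log2 ratio of siGPR64 to control_GPR64 for the measured members of each list with at least 10, 1 point per gene, with the median of the list as a black bar, genes called higher in red and lower in blue, and dotted lines at 2-fold. The lists are ordered by their median, from 1.72 in replication-dependent histones at the top to -0.95 in ATF4 targets at the bottom.

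Targets of p53, the tumour suppressor that halts the cell cycle and promotes death after damage, were lower in 10 of 28 measured cases and higher in 0, with a median of -0.46 (against control_SMPD1 2 higher, 2 lower, median -0.13). A673 is known as a line without functional p53, and several of the 10 also answer to other factors, among them GDF15 and SESN2 of the ATF4 list. CDKN1A, the cyclin-dependent kinase inhibitor p21, read 129 CPM in control_GPR64 and 43.9 CPM in siGPR64, 2.94-fold lower (2.38 to 3.67), but was at 30.7 CPM in control_SMPD1 and 62.8 CPM in siSMPD1. GADD45A, a stress sensor, read 197 CPM in control_GPR64 and 74.4 CPM in siGPR64, 2.65-fold lower (2.25 to 3.14), and 37.9 CPM in control_SMPD1 and 34.2 CPM in siSMPD1. For both, control_GPR64 was the library with the highest level and siGPR64 was above control_SMPD1. TNFRSF10B, the TRAIL receptor that DDIT3 also induces, was 3.7-fold lower (3.22 to 4.28) and still below control_SMPD1 at 213 CPM. FAS, another death receptor, was 2.39-fold lower (1.93 to 2.99) and XPC, a DNA damage sensor, 2.79-fold lower (2.36 to 3.34). Over 26 death receptor and caspase genes 2 were higher and 3 lower (against control_SMPD1 0 higher, 2 lower, median -0.20), with TNFRSF21, another death receptor, at 29.1 CPM in control_GPR64 and 107 CPM in siGPR64.

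Genes of DNA replication and the G1/S step were higher in 7 of 42 cases and lower in 0, with a median of 0.30 (against control_SMPD1 1 higher, 2 lower, median -0.04). With chromosomes 5, 8 and 11 left out, 5 of 34 members were higher and 0 lower, with a median of 0.24. The higher member E2F8 lies on chromosome 11. CCNE2, a cyclin that starts S phase, read 1.71 CPM in control_GPR64 and 16.8 CPM in siGPR64, 8.98-fold higher (3.9 to 31.8), and 15.9 CPM in control_SMPD1 and 18.8 CPM in siSMPD1. CCNE1 read 3.77 CPM in control_GPR64 and 14.9 CPM in siGPR64, 3.81-fold higher (1.98 to 8.57), and 4.48 CPM in control_SMPD1 and 3.13 CPM in siSMPD1. The control_GPR64 library was thus the low one for CCNE2, whereas for CCNE1 siGPR64 stood above all 3 others. UNG, which removes uracil from DNA, was 3.24-fold higher (2.49 to 4.31), and the transcription factor E2F1 2.05-fold higher (1.73 to 2.44). Of 45 mitosis genes 0 were higher and 2 lower (against control_SMPD1 0 higher, 0 lower, median -0.17): HMMR, a spindle protein, 2.1-fold lower (1.8 to 2.46), and NDC80 of the kinetochore, 2.05-fold lower (1.75 to 2.42). The side was the opposite against control_SMPD1 for HMMR.

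Immediate-early genes, which answer to growth factor and stress signals within minutes, had 3 higher and 4 lower of 27 and a median of -0.13 (against control_SMPD1 6 higher, 0 lower, median 0.85). EGR1 read 410.0 CPM in control_GPR64 and 87.4 CPM in siGPR64, 4.69-fold lower (4.07 to 5.44), and 46.7 CPM in control_SMPD1 and 27.3 CPM in siSMPD1, so that the GPR64 pair stood above the SMPD1 pair. EGR3 was 3.8-fold lower (2.23 to 7.15), while KLF2, FOSL1 and FOSL2 were 9.21-fold higher (3.3 to 54.9), 3.61-fold higher (2.14 to 6.65) and 2.92-fold higher (1.46 to 6.69). Among 23 genes of ERK feedback, DUSP6, the ERK phosphatase, read 426 CPM in control_GPR64 and 170.4 CPM in siGPR64, 2.5-fold lower (2.24 to 2.79), and DUSP4, its nuclear relative, 3.91-fold higher (2.48 to 6.63). The list held 3 higher and 2 lower members. Set against control_SMPD1, EGR3 had the opposite sign.

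Components of cAMP and G protein signalling, the pathways a receptor such as GPR64 acts through, showed no common side, with 7 higher and 7 lower of 58 and a median of -0.03 (against control_SMPD1 2 higher, 4 lower, median 0.13). Among G alpha subunits GNA13 read 121 CPM in control_GPR64 and 51.3 CPM in siGPR64, 2.34-fold lower (1.92 to 2.89), and GNAQ 2.14-fold lower (1.64 to 2.83), while GNAS, which activates adenylyl cyclase, was at 991 CPM in control_GPR64 and 1029 CPM in siGPR64 and called in neither direction. Among adenylyl cyclases ADCY3 was 2.63-fold higher (1.99 to 3.56) and ADCY7 2.7-fold higher (1.74 to 4.42). The anchoring protein AKAP12 read 139 CPM in control_GPR64 and 327 CPM in siGPR64, 2.36-fold higher (2.09 to 2.66). RGS16, which turns G proteins off, was 2.53-fold lower (2.04 to 3.16) and ATF1, a cAMP-responsive factor, 3.11-fold lower (2.19 to 4.6). Of the other adhesion receptors, GPR56 was 5.26-fold higher (2.15 to 19.1) and BAI2 2.6-fold higher (1.51 to 4.8), and GPR128 was 5.51-fold lower (1.53 to 59.1), among 4 higher and 3 lower (GPR64 included) of 18 measured.

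PGF, a ligand of the receptor FLT1, read 14.7 CPM in control_GPR64 and 38 CPM in siGPR64, 2.56-fold higher (1.78 to 3.79), and 20.2 CPM in control_SMPD1 and 62.3 CPM in siSMPD1. FLT1 itself had 1 count in control_GPR64 and 12 in siGPR64, and stood at 10.8 CPM in control_SMPD1 and 12 CPM in siSMPD1. PGF was highest in siSMPD1 and lowest in control_GPR64. The coreceptor NRP2 was 3.9-fold higher (1.37 to 17.8), and the list of 16 measured angiogenesis genes had 3 higher and 0 lower (against control_SMPD1 3 higher, 2 lower, median 0.49).

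Metalloproteinases, plasminogen activators and their inhibitors had 9 higher and 1 lower of 28 measured, with a median of 0.41 (against control_SMPD1 5 higher, 3 lower, median 0.18). MMP1 read 116 CPM in control_GPR64 and 689 CPM in siGPR64, 5.91-fold higher (5.26 to 6.66), and 2609 CPM in control_SMPD1 and 2375 CPM in siSMPD1, so that siGPR64 stood between control_GPR64 and the SMPD1 pair. MMP1 and MMP10 lie on chromosome 11, and without the 3 chromosomes 4 of 21 members were higher. TIMP4, an inhibitor, was 4.86-fold higher (2.71 to 9.99), while TIMP3 was 2.22-fold lower (1.82 to 2.72). The plasminogen activators PLAU and PLAT were 5.06-fold higher (2.05 to 18.4) and 5.09-fold higher (2.56 to 12.5). For TIMP3 and PLAU the sign turned with control_SMPD1 as the control.

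Matrix genes were mixed. Of 31 measured glycoproteins and proteoglycans 7 were higher and 2 lower, with a median of 0.17 (against control_SMPD1 6 higher, 2 lower, median 0.03). FBN1, fibrillin of elastic microfibrils, read 28.8 CPM in control_GPR64 and 139.9 CPM in siGPR64, 4.84-fold higher (3.82 to 6.24), and 137 CPM in control_SMPD1 and 188 CPM in siSMPD1, but FBN2, its embryonic relative, read 64.4 CPM in control_GPR64 and 20.0 CPM in siGPR64, 3.2-fold lower (2.35 to 4.48), and 0.885 CPM in control_SMPD1 and 1.01 CPM in siSMPD1. The GPR64 pair thus held far more FBN2 RNA than the SMPD1 pair. ELN, elastin, and SPARC, a collagen-binding protein, were 2.67-fold higher (2.29 to 3.13) and 2.45-fold higher (2.2 to 2.73). Collagens had 4 higher and 3 lower of 23 (against control_SMPD1 2 higher, 0 lower, median 0.17), among them COL1A2 (2.21-fold higher, 2.0 to 2.44) and COL7A1, the anchoring fibril collagen (6.94-fold lower, 4.44 to 11.9). Of the integrins, ITGB5 read 74.3 CPM in control_GPR64 and 232 CPM in siGPR64, 3.12-fold higher (2.67 to 3.67), and ITGA1 was 4.08-fold higher (1.92 to 10.8). The cadherin list had 8 higher and 2 lower of 25 and a median of 0.39 (against control_SMPD1 3 higher, 1 lower, median 0.07), with FAT1 2.04-fold higher (1.77 to 2.37), CDH23 2.51-fold higher (2.01 to 3.16) and DCHS1 2.74-fold higher (2.21 to 3.45), each a large cadherin of cell contact or polarity. With control_SMPD1 as the control, COL1A2, ITGA1, FAT1 and CDH23 stood on the other side of equality.

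Genes of antigen presentation by MHC class I were higher in 6 of 20 cases and lower in 0, with a median of 0.60 (against control_SMPD1 0 higher, 3 lower, median -0.59). HLA-C read 91.8 CPM in control_GPR64 and 208 CPM in siGPR64, 2.27-fold higher (1.96 to 2.64), and 241 CPM in control_SMPD1 and 309.7 CPM in siSMPD1. PSMB8, an immunoproteasome subunit, read 3.08 CPM in control_GPR64 and 19.2 CPM in siGPR64, 5.93-fold higher (3.03 to 14.4), and 37 CPM in control_SMPD1 and 42.1 CPM in siSMPD1. In both cases control_GPR64 was lowest and siGPR64 lay under control_SMPD1. Interferon-stimulated genes had 5 higher and 1 lower of 38, with a median of 0.39 (against control_SMPD1 0 higher, 8 lower, median -0.57). PARP14 and IFIT3 were 2.3-fold higher (1.66 to 3.25) and 3.24-fold higher (1.69 to 7.06). Of 22 cytokine and NF-kB genes 2 were higher and 6 lower (against control_SMPD1 0 higher, 4 lower, median -0.26). TSLP, an epithelial cytokine, read 13.4 CPM in control_GPR64 and 0.783 CPM in siGPR64, 14-fold lower (4.41 to 146), and the NF-kB subunits NFKB1 and NFKB2 were 2.1-fold lower (1.56 to 2.86) and 2.58-fold lower (1.8 to 3.84). The side was the opposite against control_SMPD1 for PARP14, IFIT3 and NFKB1.

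EWS-FLI1 activated targets had 3 higher and 3 lower of 40, beside 6.56% and 5.18% of all genes. Their median was 0.05 (against control_SMPD1 3 higher, 2 lower, median -0.0034). EWS-FLI1 repressed genes had 3 higher and 3 lower of 24 and a median of 0.24 (against control_SMPD1 1 higher, 2 lower, median -0.01). PAX7, a stem cell factor that Ewing cells express, read 24 CPM in control_GPR64 and 126 CPM in siGPR64, 5.23-fold higher (4.05 to 6.91), and 197 CPM in control_SMPD1 and 189.8 CPM in siSMPD1. NGFR, the low-affinity neurotrophin receptor, read 61 CPM in control_GPR64 and 210.4 CPM in siGPR64, 3.44-fold higher (2.91 to 4.11), and 103 CPM in control_SMPD1 and 90.8 CPM in siSMPD1. For PAX7 only control_GPR64 was low, while NGFR was higher in siGPR64 than in the 3 other libraries. CCK, a peptide hormone, was 9.26-fold lower (2.02 to 552), and NT5E, a repressed ectonucleotidase, 6.06-fold higher (3.78 to 10.7). Set against control_SMPD1, NT5E had the opposite sign.

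Neuronal and neuroendocrine genes had 9 higher and 4 lower of 29 (against control_SMPD1 6 higher, 1 lower, median 0.09). NEFL and NEFM, neurofilament chains, were 3.53-fold higher (2.81 to 4.51) and 2.48-fold higher (2.11 to 2.94), ELAVL3, a neuronal RNA-binding protein, 4.72-fold higher (3.08 to 7.76), and GAP43 of growth cones 3.27-fold higher (2.37 to 4.64). The granule peptide VGF read 102 CPM in control_GPR64 and 18.8 CPM in siGPR64, 5.39-fold lower (3.99 to 7.53), but was at 6.09 CPM in control_SMPD1 and 2.12 CPM in siSMPD1, and the granule protein CHGB was 7.47-fold lower (1.55 to 449). Against control_SMPD1 the log2 ratio of VGF was 1.62, the opposite sign. Voltage-gated channels had 9 higher and 2 lower of 27 (against control_SMPD1 7 higher, 2 lower, median 0.17), among them the potassium channel subunit KCNE4 (2.37-fold higher, 2.03 to 2.77) and the sodium channel SCN1A (0 counts against 16, at least 6.1-fold higher). CACNB2, a calcium channel subunit, was 2.56-fold lower (1.77 to 3.83). For NEFL the sign turned with control_SMPD1 as the control.

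In metabolism, hypoxia genes had 3 higher and 5 lower of 23 with a median of -0.33 (against control_SMPD1 0 higher, 9 lower, median -0.57). BNIP3, a mitophagy receptor, was 2.4-fold lower (1.76 to 3.36), whereas NDRG1 was 2.87-fold higher (1.48 to 6.32). In glycolysis 1 of 27 was higher, the glucose carrier SLC2A3 (2.19-fold higher, 1.73 to 2.79), and 3 were lower, the lactate carrier SLC16A1 (2.57-fold lower, 2.25 to 2.94), ALDOC (2.63-fold lower, 1.84 to 3.88) and PDK1 (2.01-fold lower). Of fatty acid genes, ACLY, which makes cytosolic acetyl-CoA, read 320.3 CPM in control_GPR64 and 129.7 CPM in siGPR64, 2.47-fold lower (2.18 to 2.81), and 394 CPM in control_SMPD1 and 492 CPM in siSMPD1. Among 26 sphingolipid enzymes 2 were higher and 4 lower (against control_SMPD1 2 higher, 1 lower, median -0.08), with SMPD1 first among the higher and the ceramide pathway enzymes KDSR (2.08-fold lower, 1.88 to 2.31) and CERS6 (2.06-fold lower, 1.55 to 2.78) among the lower. Cholesterol genes had INSIG1, a sterol sensor, 2.07-fold higher (1.78 to 2.42) and TM7SF2, a sterol reductase, 2.94-fold lower (2.16 to 4.11), 1 each of 26. With control_SMPD1 as the control, NDRG1 and INSIG1 stood on the other side of equality.

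Among secreted signals, WNT and TGF-beta ligands and inhibitors held 4 higher and 6 lower of 34 (against control_SMPD1 7 higher, 2 lower, median 0.20). WNT5A, a non-canonical WNT, was 3.07-fold higher (2.21 to 4.41) and its antagonist FRZB 4.48-fold higher (2.14 to 11.8), while BMP7, a bone morphogenetic protein, read 33.9 CPM in control_GPR64 and 11.8 CPM in siGPR64, 2.86-fold lower (1.9 to 4.5), and 3.18 CPM in control_SMPD1 and 3.13 CPM in siSMPD1. The WNT inhibitor DKK2 was 2.39-fold lower (2.06 to 2.78). The IGF list had 1 higher and 3 lower of 16 (against control_SMPD1 0 higher, 2 lower, median 0.09), with the binding proteins IGFBP4 and IGFBP5 2.9-fold higher (1.71 to 5.3) and 2.93-fold lower (1.78 to 5.17). Among 38 cytoskeletal genes 4 were higher and 0 lower (against control_SMPD1 1 higher, 0 lower, median -0.03), and MAP7D2, a microtubule-associated protein, read 2.74 CPM in control_GPR64 and 27.4 CPM in siGPR64, 9.44-fold higher (4.81 to 24.1), and 2.76 CPM in control_SMPD1 and 3.18 CPM in siSMPD1. MAP7D2 in siGPR64 thus stood above the 3 other libraries. Autophagy genes had 0 higher and 2 lower of 38 (against control_SMPD1 1 higher, 2 lower, median -0.14), the conjugation enzyme ATG3 (2.5-fold lower, 1.93 to 3.29) and the cargo receptor NBR1 (3.02-fold lower, 2.39 to 3.87).

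Large sets of housekeeping genes had no member called against control_GPR64. These were 77 cytosolic ribosomal protein genes with a median of -0.20, 75 mitochondrial ribosomal protein genes with -0.07, 40 proteasome subunits with 0.14, 45 ribosome biogenesis genes with 0.31, and complex I and complexes II to V of oxidative phosphorylation, 38 and 41 genes, with -0.20 and -0.03. Against control_SMPD1 the medians of cytosolic ribosomal proteins, complex I and complexes II to V were 0.37, 0.22 and 0.24, the opposite sign. Against that control 11 cytosolic ribosomal protein genes, 4 of ribosome biogenesis, 3 of mitochondrial ribosomal proteins and 1 proteasome subunit were called higher, and 0 of these sets lower. None of the 15 genes of RNA interference, the machinery that siRNAs load into, was called, and their median was 0.16.

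Long non-coding RNAs and hosts of small nucleolar RNAs had 4 higher and 2 lower of 21 (against control_SMPD1 3 higher, 0 lower, median 0.06). NEAT1, the scaffold of nuclear paraspeckles on chromosome 11, read 267 CPM in control_GPR64 and 584 CPM in siGPR64, 2.19-fold higher (2.01 to 2.39), and 760.4 CPM in control_SMPD1 and 677 CPM in siSMPD1. MIAT, a nuclear long non-coding RNA, read 27.7 CPM in control_GPR64 and 76.8 CPM in siGPR64, 2.76-fold higher (2.13 to 3.63), and 13.8 CPM in control_SMPD1 and 13.8 CPM in siSMPD1. The control_GPR64 library was thus the low one for NEAT1, and siGPR64 the high one for MIAT. Of 403 listed small structured RNAs only 50 were measured, with 7 higher and 1 lower and a median of 0.46 (against control_SMPD1 5 higher, 4 lower, median 0.04). Over the 166 with a count in either library the median was 0.17.

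**Figure D5:**
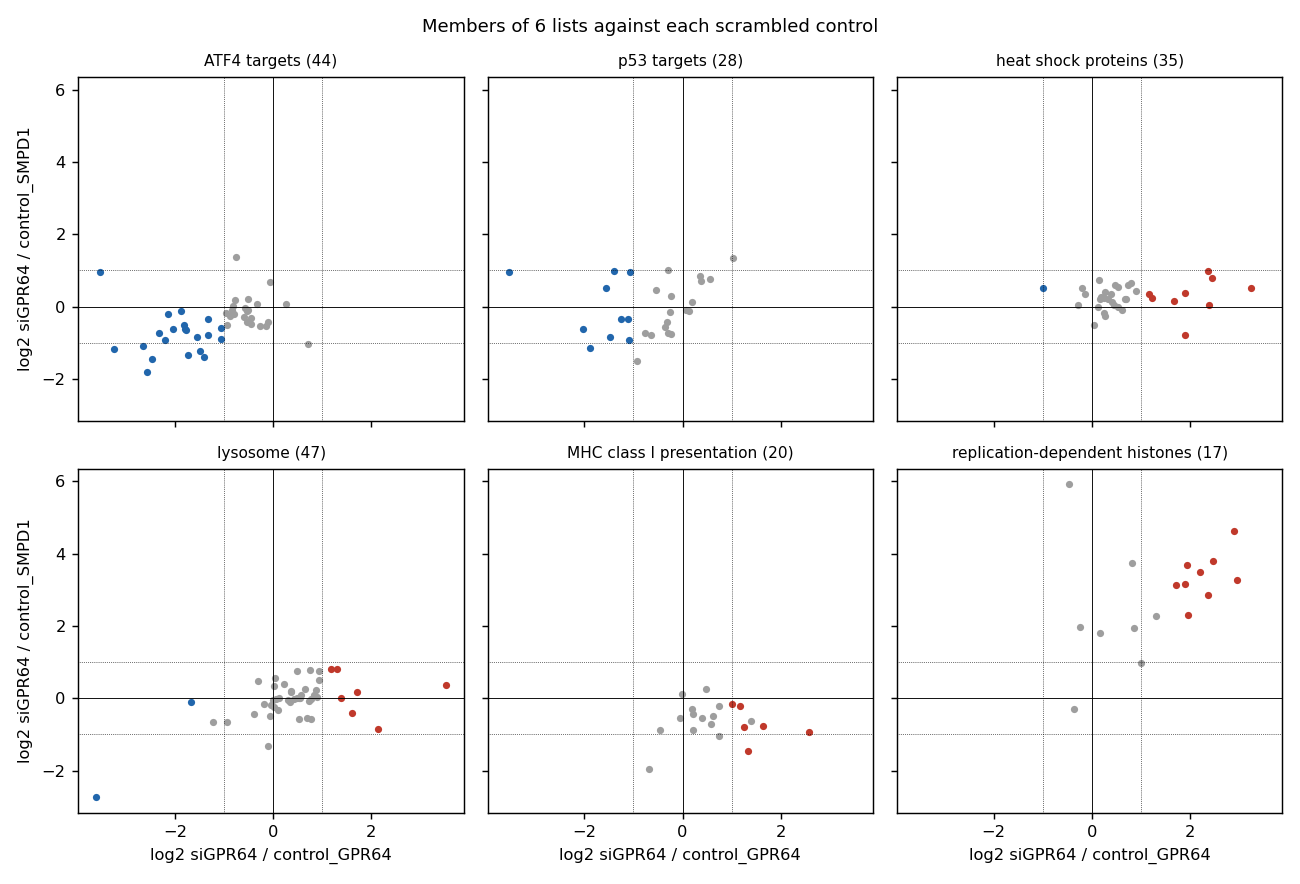
Log2 ratio of siGPR64 to control_SMPD1 (vertical) against that to control_GPR64 (horizontal) for measured members of 6 lists, 1 point per gene, coloured by the call against control_GPR64. Both axes share the siGPR64 library, and the medians are -0.95 and -0.45 for ATF4 targets, 0.60 and -0.59 for MHC class I genes and 1.72 and 3.14 for replication-dependent histones (horizontal, then vertical).

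Taking both scrambled controls as 1 group of 2 libraries against siGPR64, which uses their difference as the error, edgeR's quasi-likelihood test called 0 of 13664 genes at an adjusted p under 0.05 and DESeq2 called 0. That error rests on 2 control libraries of unlike depth, so a count of 0 does not show that no gene differed. In 5 equal classes of gene length the median log2 ratio to control_GPR64 lay between -0.00036 and 0.03. Against control_SMPD1 the medians fell from the shortest class to the longest: 0.15, 0.06, -0.0031, -0.06 and -0.16. For control_GPR64 against control_SMPD1 they went from 0.18 to -0.17. In 5 classes of GC content, from the lowest to the highest, the medians of siGPR64 against control_GPR64 were -0.13, -0.05, 0.09, 0.11 and 0.10. The share of higher genes went from 3.73% to 8.95%. The part of length and GC content in the gene groups above was not tested.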

How the data were processed

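Libraries were made from total RNA after removal of ribosomal RNA and read from both ends, per the labels' protocols. HTSeq, SAMtools, TopHat2, bcl2fastq and the build hg19 come from the submitters' processing notes. No source at hand states the annotation or the strand setting, so whether antisense partners share reads cannot be told. The deposited files hold raw counts per gene symbol made by the authors. The 5 HTSeq summary lines, 36.5% of entries in siGPR64 and 37.6% in control_GPR64, were left out. Entries not uniquely aligned, which those lines include, made up 20.1% and 21.4%.

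Libraries were scaled by TMM (edgeR 4.0.16, R 4.3.3) over all 4 libraries. Log2 ratios carry a prior of 0.5 count, scaled to each library. Where a library had 0 counts, 3 were put in and the fold was given as a lower bound. Counting intervals (95%, exact Clopper-Pearson) treat reads as independent molecules, which reads without molecular identifiers may not be. The rule of size was tested on simulated counts. DESeq2 1.42.0 and edgeR were also run with both controls as 1 group, and other scalings, filters, thresholds and controls were tried.

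The comparison, its 68 gene lists and the rules were chosen with earlier results of these data known, so no list count is independent evidence. Named are GPR64, the 10 higher and 10 lower genes with the furthest interval bound, the 10 and 10 with the largest difference in CPM, and up to 6 called members per list by that bound, or up to 2 by size where none is called. Not every such gene is printed. Other genes were chosen after their values were seen: ADCY7, ALDH18A1, ARRDC2, BAG2, BMP7, CHAC1, CHGB, CHORDC1, DDIT3, DNAJB5, DNAJB6, FAT1, FOSL2, GAP43, GNAQ, GNAS, MLX, MNT, MTHFD1L, MXD4, NEFM, NFE2L2, NKX2-2, PHGDH, PPP1R15A, PYCR1, SERPINH1, SLC3A2 and SLC7A5. Of the measured genes, 12429 matched a RefSeq symbol, used for gene order and names, and 10023 had a RefSeq promoter (GRCh38.p14). Length and GC content came from GENCODE transcripts and were found for 96.2% of measured genes.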

Additional observations from a re-analysis of the deposited data

How the results depend on the processing

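The counts of 842 higher and 664 lower genes stayed within 1.5 times under plain library sizes, DESeq2 size factors, TMM over the pair alone, either other CPM filter, no interval, control_SMPD1 as the control and the 3 chromosomes left out. With a 1.5-fold threshold they were 1694 and 1454, with a 4-fold threshold 249 and 159, and with both controls as 1 group 0 and 0 by edgeR and 0 and 0 by DESeq2. The similar totals with control_SMPD1 hold mostly other genes. Of the 842 higher and 664 lower genes, 191 and 176 were called the same way against it, and 247 and 140 had the opposite sign. The median log2 ratio of all genes moved by at most 0.03 under any setting. Scalings, filters, the prior and the chromosomes moved none of the 64 list medians out of a range set by the members. That range runs from the median lower to the median upper counting bound of single members. It is wide for a median of many genes, so staying inside it does not show that a median was unchanged. With no CPM filter the median of replication-dependent histones was 0.88 and that of small structured RNAs 0.17. No call of a named gene was lost under another scaling, and 3 were lost with a prior of 2 counts. No paired analysis was possible because each group holds 1 library and the labels give no replicate numbers.

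With control_SMPD1 as the control, 12 list medians turned sign and left the range of their members' bounds: endoplasmic reticulum chaperones -0.41, cytosolic ribosomal proteins 0.37, complex I 0.22, complexes II to V 0.24, glycolysis -0.19, cholesterol -0.42, interferon-stimulated genes -0.57, MHC class I -0.59, immediate-early genes 0.85, G1/S genes -0.035, cytoskeletal genes -0.030 and Ewing markers -0.080. Another 6 left that range with the same sign: ATF4 targets to -0.45, cytosolic tRNA synthetases to -0.23, heat shock proteins to 0.24, CCT to 0.21, replication-dependent histones to 3.14 and fatty acid synthesis to -0.35. The other 46 medians stayed inside it, but some of them turned sign too and others did not. Examples of a turn are lysosome to -0.0058, amino acid transporters to -0.13, mitochondrial chaperones to 0.16 and cAMP signalling to 0.13. Of the 178 genes with values above, 79 called genes kept their sign but were no longer called. Another 38 called genes turned sign, so none of them kept its call. Some were called the other way, among them MMP1 and MYOF, higher against control_GPR64 and lower against control_SMPD1. Of the genes called in neither direction, 7 turned sign beyond their counting interval, and turns within it were not counted. Only the ratios of the 38 are listed next. The log2 ratios that turned sign were 0.27 for ARRDC4, 1.87 for BMP7, -0.53 for CD68, -0.78 for CDH23, 0.52 for CDKN1A, -0.49 for COL1A2, -0.0058 for CTSD, 0.52 for DNAJB5, 0.90 for EGR1, 1.57 for EGR3, -0.97 for FAT1, 4.43 for FBN2, -1.19 for FLT1, 0.97 for GADD45A, 0.95 for GDF15, -0.21 for HLA-C, 0.36 for HMMR, -0.52 for IFIT3, -0.44 for INSIG1, -0.90 for ITGA1, -0.13 for KRT8, -1.92 for MMP1, -1.36 for MYOF, -1.12 for NDRG1, -0.38 for NEAT1, -0.96 for NEFL, 0.92 for NFKB1, -0.28 for NT5E, -1.12 for PARP14, -0.64 for PAX7, -0.20 for PLAU, -0.94 for PSMB8, 1.43 for SLC7A3, -0.84 for SMPD1, -0.15 for TFRC, 1.20 for TIMP3, -0.40 for TPP1 and 1.62 for VGF. The cause was not tested. Depth limits genes under 10 CPM most.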
